A study of Mus musculus with 4 samples.

Results

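GFP-marked and unmarked macrophages of visceral fat were compared within 2 single-cell libraries. The classes were chosen by their reporter UMIs, that is, by counts of distinct captured transcripts. A marked macrophage had at least 3 UMIs of the GFP coding sequence (GFPcds) and an unmarked one had 0. Of 1196 kept cells in the visceral intraperitoneal (IP) libraries, 58 passed the macrophage gate, and 31 of these were marked and 22 unmarked. WT IP held 49 gated cells (27 marked, 17 unmarked and 5 with 1 or 2 GFPcds UMIs, which entered neither class). KO IP held 9 (4 marked and 5 unmarked).

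The study loaded adipose tissue cells of WT and EC-TERT-KO mice on 10x Genomics Chromium, with 1 library per genotype and depot and 4 libraries in all. Both genotypes carried Tie2e-cre, a recombinase under regulatory sequence of the endothelial receptor gene Tie2 (Tek), and mTmG, a reporter that makes tdTomato until recombination removes it and switches on GFP. The KO carried TERT fl/fl and the WT the unmodified Tert gene, so the controls also carried the recombinase and the reporter. All mice were male and 7 months old and had received 5 months of high-fat diet. How many mice were pooled into each library is not given, so no difference between WT IP and KO IP can be set against a spread between mice.

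Adipose tissue macrophages clear dying adipocytes, store lipid and present antigen. Resident macrophages settle in the tissue and renew there, and are known for Timd4, Lyve1, Folr2, Mrc1 and Cd163. Recruited macrophages derive from blood monocytes and are known for Ccr2 and MHC class II, while the lipid-associated state of obesity is known for Trem2, Cd9 and Lpl. Tie2-driven recombinases act in endothelium and are also known to act in blood-forming cells, so a GFP mark records past recombination and not present use of Tek.

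The gate asked for C1qa, C1qb and C1qc together at 3 UMIs or more, Csf1r, Adgre1 and Cd68 together at 1 or more, Cd3d, Cd3e and Cd3g together at 1 at most, and no Cd79a or Pdgfra. Lyz2, the lysozyme gene of myeloid cells and no part of the gate, was found in every marked and unmarked cell, with 5 to 601 UMIs per marked WT IP cell against 18 to 537 per unmarked cell, and 155 to 461 against 17 to 378 in KO IP. Of the endothelial markers, Cdh5, Emcn and Cldn5 had 0 UMIs in all 4 classes. Marked WT IP cells held 28 Pecam1 UMIs in 10 cells and unmarked ones none, while in KO IP the 6 Pecam1 UMIs lay in 2 unmarked cells. The endothelial, stromal, mesothelial, T, B, NK and mast cell lists each summed to at most 17 UMIs in any marked or unmarked cell. The dendritic cell list reached 9 UMIs in a marked and 21 in an unmarked WT IP cell, and 14 and 2 in KO IP. The monocyte list, which shares genes such as Ccr2 with the recruited list, ran from 0 through a median of 13 to 49 UMIs in marked and from 2 through 17 to 41 in unmarked WT IP cells, and up to 51 and 25 in KO IP. The part of these lists in the results was not tested.

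The marked and unmarked cells differed little in depth. In WT IP the total UMIs ran from 6406 through a median of 19402 to 45185 in marked cells and from 2021 through 16941 to 39642 in unmarked cells. In KO IP they ran from 11259 to 26804 (median 15196.5) and from 4173 to 22666 (median 15902). KO SC, the subcutaneous KO library, shared 93 barcodes with WT IP against 0 or 1 for every other pair of libraries. Among them were 7 gated WT IP cells, 5 marked and 2 unmarked, with 31692 to 45185 UMIs in WT IP and 506 to 679 in KO SC. Where a WT IP ratio is stated below and these cells move it beyond its counting interval, it is given with and without them. WT SC held no gated cell and KO SC held 2, of which 1 was marked and the other was the shallow copy of a WT IP cell.

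In WT IP, marked cells made up 55.1% of gated macrophages (27 of 49, exact 95% binomial interval 40.2% to 69.3%), and in KO IP 44.4% (4 of 9, 13.7% to 78.8%). These intervals cover counting error only, and at this depth a difference between the libraries was not detectable. With every cell thinned to 3000 UMIs the shares were 47.9% and 22.2%. In the same WT IP library, GFPcds at 3 UMIs or more was found in 69.5% of 128 T cells, 55.0% of 20 endothelial cells, 20.9% of 235 stromal cells and 9.52% of 21 B cells. In KO IP it was found in 39 of 122 T cells, 5.88% of 17 endothelial cells, 9.90% of 192 stromal cells and 11.5% of 26 B cells. In WT IP the macrophage share lay above that of stromal and B cells with intervals that did not overlap (stromal 15.8% to 26.6%, B cells 1.17% to 30.4%). The macrophage interval overlapped those of T cells (60.8% to 77.4%) and endothelial cells (31.5% to 76.9%) in WT IP. It also overlapped that of other Lyz2 cells, outside the gate (24 of 52, 32.2% to 60.5%). In KO IP 3 of 23 other Lyz2 cells held GFPcds at 3 UMIs or more. Whether the cell types differ beyond counting error was not tested. In KO IP the interval of the macrophages overlapped that of every other type named. The median depth of stromal cells was 25116 UMIs in WT IP and 24992.5 in KO IP.

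GFPcds ran from 3 through a median of 44 to 159 UMIs per marked cell in WT IP, and its values in KO IP were 37, 22, 20 and 3. These values chose the classes and are a description. Just inside the threshold stood 1 cell with 3 UMIs in each library, and just outside it 1 WT IP cell with 2. Tdtomato, which the rule did not use, was nearly absent from marked cells. It had 1 UMI in 1 of 27 marked WT IP cells, a cell with 4 GFPcds UMIs, and 18 UMIs in 13 of 17 unmarked cells, with 3 UMIs at most in a cell. The log2 ratio of marked over unmarked was -4.48 (-10.4 to -2.36). In KO IP no marked cell and 2 of 5 unmarked cells held Tdtomato, 3 UMIs in all, which was within counting error. The unmarked cells without Tdtomato, 4 in WT IP and 3 in KO IP, held neither reporter.

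**Figure D1:**
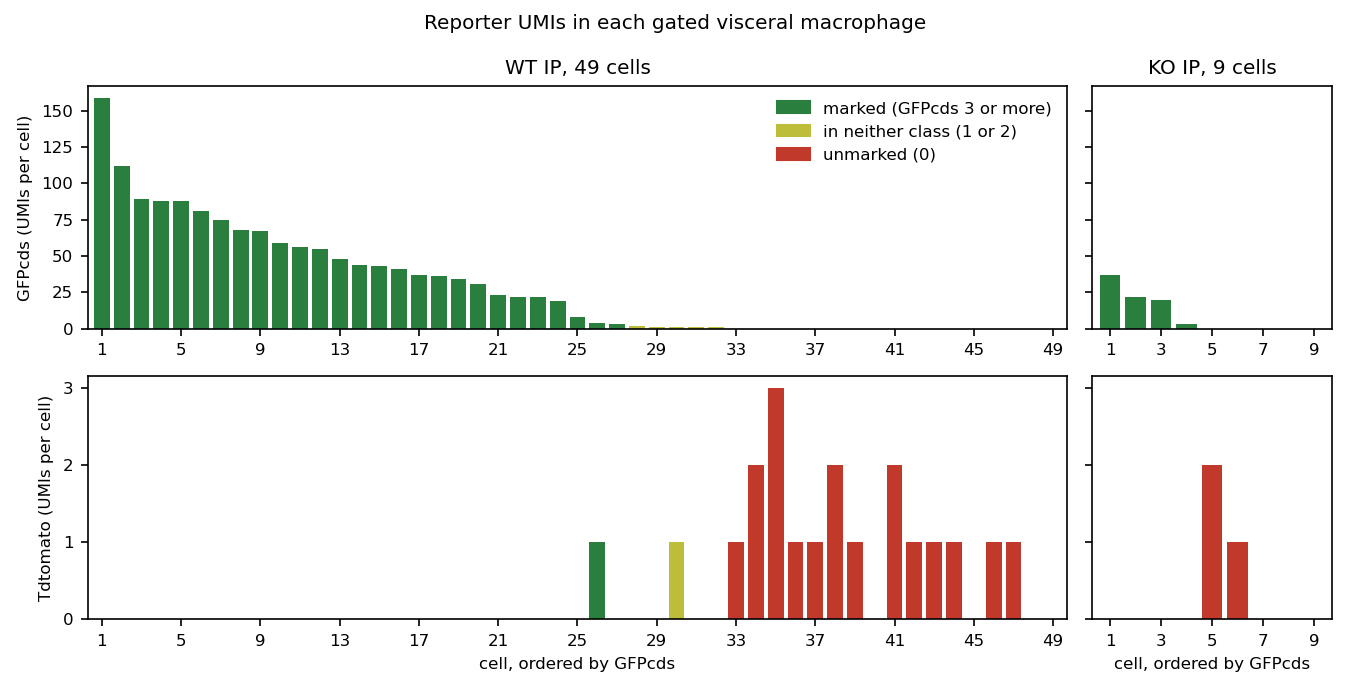
UMIs of GFPcds (upper row) and Tdtomato (lower row) in each gated cell of WT IP (49 cells) and KO IP (9 cells), 1 bar per cell, in the order of GFPcds, coloured by class. Tdtomato reaches 3 UMIs at most and lies in 13 of 17 unmarked and 1 of 27 marked WT IP cells.

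Tert encodes the catalytic subunit of telomerase and was the gene deleted in the KO (GRCm38, chromosome 13, 73626911 to 73649843, plus strand, identifier ENSMUSG00000021611). It had 0 UMIs in all 4 classes. That allows up to 5.48 counts per 1000000 UMIs (CPM) in marked and 9.88 in unmarked WT IP cells, and 43.8 and 38.4 in KO IP, so the deletion could not be checked in these cells. Timd4, Gata6 of large peritoneal macrophages and Tek had 0 UMIs in all 4 classes as well.

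The first question was whether marked cells differed from unmarked cells in resident macrophage genes. UMIs were summed per class and library and compared as CPM, with 0.5 UMI added, for genes with at least 20 UMIs in both classes together. A gene that passed this filter through 1 class alone had to differ, so the counts and medians over passing genes are descriptions. In WT IP, 13 of 22 listed genes were compared. The median log2 ratio was 2.68, with 12 genes higher in marked cells, 11 of them beyond their own 95% counting interval, and none lower beyond it. Over all 5140 genes compared in WT IP the median was 0.08, and 11.6% were higher and 7.02% lower beyond that interval. In KO IP 8 resident genes were compared, with a median of 0.59, 3 higher and 0 lower beyond counting error. Over all 1307 genes there the median was -0.08, and 13.5% were higher and 16.4% lower. Several of the 13 resident genes of WT IP passed the filter almost wholly through marked cells. Examples are Lyve1 (62 UMIs against 0), Cbr2 (40 against 0) and Ltc4s (33 against 1). The WT IP median was 1.06 over 8 genes at a minimum of 50 UMIs and 0.53 over 4 genes after thinning to 3000 UMIs.

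Folr2, a folate receptor of resident macrophages (chromosome 7, 101839988 to 101857194, minus strand), had 105 UMIs in 7 of 27 marked WT IP cells and 1 UMI in 1 of 17 unmarked cells. Its level was 192 CPM against 3.29 CPM, a log2 ratio of 5.29 (3.35 to 11.2). In KO IP all 8 Folr2 UMIs lay in 1 marked cell, with 0 in the unmarked cells, at least 3.05-fold higher when 3 counts are taken as the limit of 0. Lyve1, a hyaluronan receptor, had 62 UMIs in WT IP, all in 1 marked cell, against 0 in unmarked cells. By the same limit over the class this was at least 11.5-fold higher. Lyve1 had no UMI in KO IP. The cell with the Lyve1 UMIs is among those whose barcodes KO SC shares. Without the shared cells Lyve1 had 0 UMIs in both WT IP classes, and Folr2 had 37 against 1, a ratio of 3.99 (1.99 to 9.90).

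Mrc1, the mannose receptor, was spread over more cells. It was found in 25 of 27 marked WT IP cells, with a median of 13 and a highest value of 95 UMIs, and in 13 of 17 unmarked cells, with a median of 6 and a highest value of 26. The log2 ratio was 0.81 (0.54 to 1.09). In KO IP it was 0.55 (0.08 to 1.04), but 68.2% of the marked UMIs came from 1 cell, and with each cell weighted equally the ratio was -0.15. Cd163, the haemoglobin scavenger receptor, had 7 UMIs in each WT IP class, a ratio of -0.85 within counting error (-2.59 to 0.89).

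The remaining resident genes, like the further genes taken from the lists below, were named after their values were seen. They were mostly concentrated in few cells. Pf4, a chemokine, had 383 UMIs in 13 marked WT IP cells against 19 in 6 unmarked cells, a log2 ratio of 3.45 (2.82 to 4.23), or 2.81 without the shared cells. The KO IP ratio of Pf4 was -0.48 (-1.99 to 0.87). Gas6, a bridging ligand in the uptake of dying cells, had ratios of 1.99 in WT IP and 3.61 in KO IP, with 71.8% of the marked UMIs in 1 cell of WT IP and all of them in 1 cell of KO IP. Stab1, a scavenger receptor, had 30 UMIs against 2 in WT IP and 15 against 0 in KO IP. Igf1, a growth factor, stood at 2.68 (1.24 to 5.22) in WT IP and 2.51 (0.61 to 5.98) in KO IP. The KO IP value of Igf1 rests on 12 UMIs against 2, with 91.7% of the marked UMIs in 1 cell. Both Igf1 and Stab1 lay below the minimum of 20 UMIs in KO IP. Maf, a transcription factor of resident macrophages, lay in 18 of 27 marked and 5 of 17 unmarked WT IP cells, a ratio of 1.30 (0.49 to 2.29), and stood at -0.19 (-0.99 to 0.58) in KO IP. Without the shared cells, Gas6 (0.41, -1.16 to 2.36), Stab1 (0.48, -1.94 to 4.06) and Igf1 (1.06, -0.70 to 3.70) differed within counting error in WT IP, while Maf stood at 1.70 (0.72 to 2.98). Clec10a, a lectin, differed within counting error in both libraries (-0.11 and 0.19), though in KO IP it had only 8 UMIs in each class, below the minimum.

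**Figure D2:**
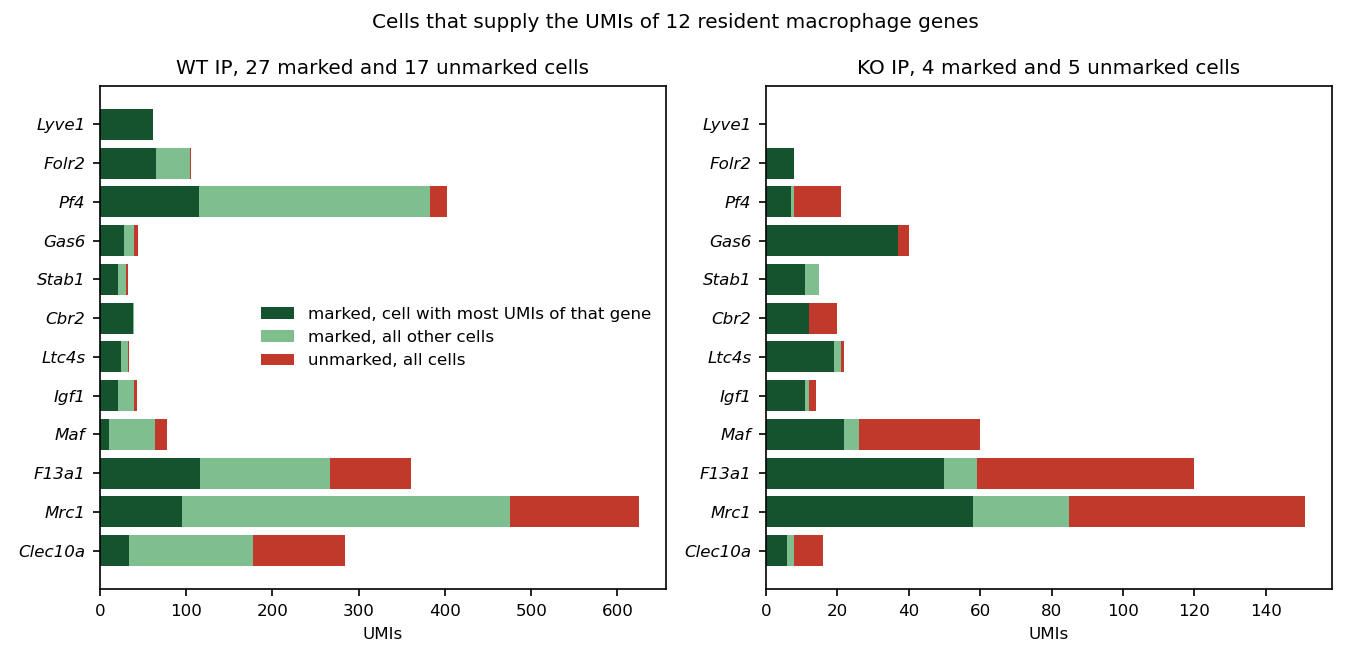
UMIs of 12 resident macrophage genes in WT IP (left) and KO IP (right), with each bar split into the marked cell that held most of that gene, the other marked cells, and all unmarked cells. All 62 Lyve1 UMIs of WT IP and all 37 marked Gas6 UMIs of KO IP come from a single cell, while Mrc1 in WT IP comes from many. All cells of each class are included. Without the cells whose barcodes KO SC shares, the marked Cbr2 UMIs of WT IP fall from 40 to 2.

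Per cell, the classes overlapped. The summed resident list ran from 3.10 through a median of 17.7 to 193 UMIs per 10000 in marked WT IP cells and from 0 through 14.2 to 23.9 in unmarked cells. Thus 8 of 27 marked cells lay above every unmarked cell, and the others lay within the same range. The highest cell held 35.1% of the resident UMIs of its class. This cell carried the Lyve1 UMIs, 65 of the Folr2 UMIs and UMIs of 17 of the 22 listed genes, but 1 H2-Aa UMI, and its barcode is among those shared with KO SC. In KO IP the 4 marked cells held from 10.7 to 88.8 (median 20.6) and the 5 unmarked cells from 9.26 to 64.1 (median 24.1), and 1 marked cell held 76.0% of the resident UMIs of its class. That cell had 0 H2-Aa and 0 Ccr2 UMIs. It also held all of the Folr2 (8), Gas6 (37), Spp1 (154) and Cd5l (35) UMIs of the marked KO IP cells, so these are values of 1 cell. Of the marked KO IP UMIs it further held 11 of 12 for Igf1 and 11 of 15 for Stab1.

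The list medians moved when these cells were left out, and so did the number of genes that reached 20 UMIs. Without the marked cells under 10 H2-Aa UMIs (2 in WT IP and 2 in KO IP, a choice made after the data were seen), the resident median was 0.88 over 8 genes in WT IP and -1.17 over 3 genes in KO IP. Without the cells whose barcodes KO SC shared it was 0.83 over 7 genes in WT IP. Whether the cells or the smaller sets of genes moved the medians was not tested. With each cell weighted equally it was 2.19 in WT IP and 0.03 in KO IP.

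**Figure D3:**
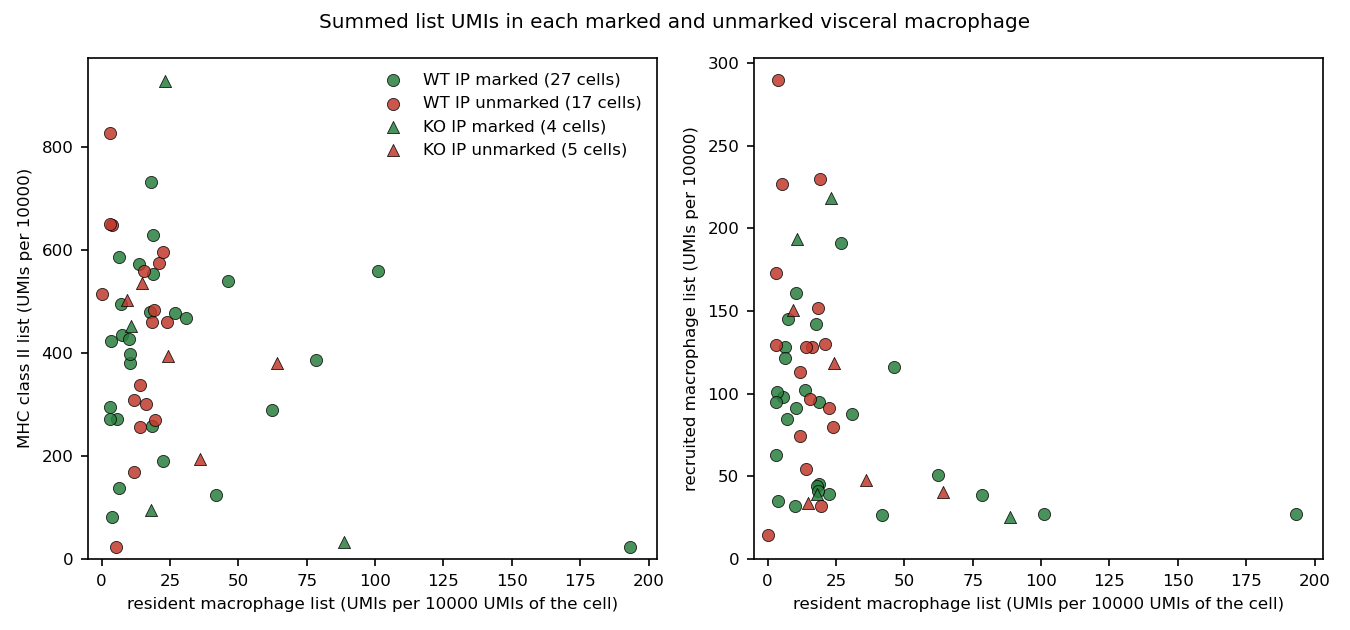
Summed UMIs per 10000 of the resident list (x axis) against the MHC class II list (left) and the recruited list (right) in each marked (green) and unmarked (red) cell of WT IP (circles) and KO IP (triangles). The marked cells reach 193 on the resident axis, and the unmarked cells of WT IP end at 23.9.

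Recruited macrophage genes were on balance lower in marked cells of WT IP. Of 20 listed genes, 16 were compared, with a median log2 ratio of -0.46, 10 lower and 0 higher beyond counting error. In KO IP the median over 10 genes was -0.06, with 2 higher and 1 lower. With each cell weighted equally that KO IP median was 0.53. By the summed list relative to each cell's UMIs, 2 of 4 marked KO IP cells lay above every unmarked cell and 1 lay below. Ccr2, the receptor by which monocytes leave the marrow, was found in 21 of 27 marked and 17 of 17 unmarked WT IP cells, with a median of 12 UMIs in both classes and a ratio of -0.36 (-0.60 to -0.10), or -0.23 (-0.52 to 0.06) without the shared cells. In KO IP the Ccr2 ratio was also -0.36 (-0.93 to 0.19), and 2 of 4 marked cells had none. Itgax, an integrin subunit, did not differ beyond counting error in WT IP (0.04, -0.87 to 1.03, and -0.90, -2.29 to 0.42, without the shared cells) and had 0 UMIs in KO IP.

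S100a4, a calcium-binding protein of monocyte-derived cells, was lower in marked cells, at -0.48 (-0.61 to -0.35) in WT IP and -0.44 (-0.83 to -0.07) in KO IP, where weighting the cells equally gave 0.26. Clec4e, a receptor for damaged cells and microbes, stood at -1.35 (-1.79 to -0.93) in WT IP, or -0.85 without the shared cells. In KO IP it stood at -2.05 (-4.64 to -0.42), but with 3 UMIs against 16, below the minimum of 20. Chil3, a chitinase-like protein, had 38 UMIs in the unmarked WT IP cells, 34 of them in a single cell, against 18 in the marked cells. Il1b, the interleukin 1 beta gene, lay on opposite sides of 0 in the libraries. It had 150 UMIs in marked and 601 in unmarked WT IP cells, a ratio of -2.85 (-3.12 to -2.59), with 437 of the 601 UMIs in 1 unmarked cell and a median of 2 in both classes. In KO IP it had 81 UMIs in 3 marked cells and 11 in 3 unmarked cells, a ratio of 3.02 (2.16 to 4.13).

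MHC class II genes, whose products present peptides to CD4 T cells, differed little in WT IP, where 9 genes had a median of -0.12, 4 lower and 0 higher beyond counting error. H2-Aa ran from 1 through a median of 155 to 340 UMIs in marked cells and from 0 through 148 to 282 in unmarked cells, a ratio of -0.13 (-0.21 to -0.06) that was -0.01 (-0.10 to 0.07) without the shared cells. In KO IP the median was -0.48, with 6 of 9 genes lower and 1 higher. There the marked cells held 261, 101, 0 and 2 H2-Aa UMIs, while the unmarked cells ran from 10 through 158 to 236, a ratio of -0.82 (-1.01 to -0.64). The marked cells at 0 and 2 therefore lay below every unmarked cell and the one at 261 above. Ctss, the protease that trims the MHC class II chaperone Cd74, was the gene higher in marked KO IP cells (1.37, 1.03 to 1.73), with 20 to 84 UMIs per marked and 2 to 38 per unmarked cell.

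By their list medians, lipid-associated genes were higher in marked cells of both libraries. In WT IP 17 of 20 genes had a median of 0.49, 9 higher and 2 lower beyond counting error. Without the shared cells the WT IP median was 0.14, and with each cell weighted equally it was 0.19. Per cell the classes overlapped in WT IP. On the scale used for the resident list, the summed list had a median of 88.7 in marked and 85.5 in unmarked cells. There 0 of 27 marked cells lay above every unmarked cell, and 1 unmarked cell lay above every marked cell. In KO IP 13 genes had a median of 2.34, with 9 higher and 1 lower. With each cell weighted equally that median was 1.88. By the summed list relative to each cell's UMIs, 2 of 4 marked KO IP cells lay above every unmarked cell. A single marked cell, with 3 GFPcds UMIs, held 52.9% of the list's UMIs in its class. At GFPcds of at least 5 UMIs for marked cells the KO IP median was 1.67. Trem2, a lipid-sensing receptor, was found in 13 of 27 marked and 9 of 17 unmarked WT IP cells, a ratio of 0.77 (0.23 to 1.37), or 0.14 (-0.47 to 0.79) without the shared cells. In KO IP 3 of 4 marked and 3 of 5 unmarked cells held it, a ratio of 2.34 (1.39 to 3.55). Cd9, a tetraspanin, stood at -0.03 (-0.71 to 0.71) in WT IP, or -1.28 (-2.23 to -0.39) without the shared cells, and had 6 UMIs against 0 in KO IP.

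Cd63, a tetraspanin of lysosomes, stood at 1.62 (1.06 to 2.26) in WT IP and 4.14 (2.49 to 7.54) in KO IP. Fabp5, a fatty acid binding protein, had 91 UMIs in marked and 9 in unmarked WT IP cells, a ratio of 2.42. Its relative Fabp4 stood at -2.06 (-2.45 to -1.68), with 188 of the 190 unmarked UMIs in 1 cell, and at -4.01 without the shared cells. Apoe, a lipid carrier, had 1707 UMIs in marked and 712 in unmarked WT IP cells, a ratio of 0.41 (0.28 to 0.54) that became 0.16 (0.03 to 0.30) without the shared cells and -0.27 with each cell weighted equally. In KO IP Apoe stood at 2.77 (2.59 to 2.96), with 84.8% of the marked UMIs in 1 cell. That library also held Spp1, the osteopontin gene, with 154 UMIs in 1 marked cell and 0 in the unmarked cells, at least 58.6-fold higher. Without the marked cells under 10 H2-Aa UMIs the KO IP median of the list was 0.26 over 7 genes.

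**Figure D4:**
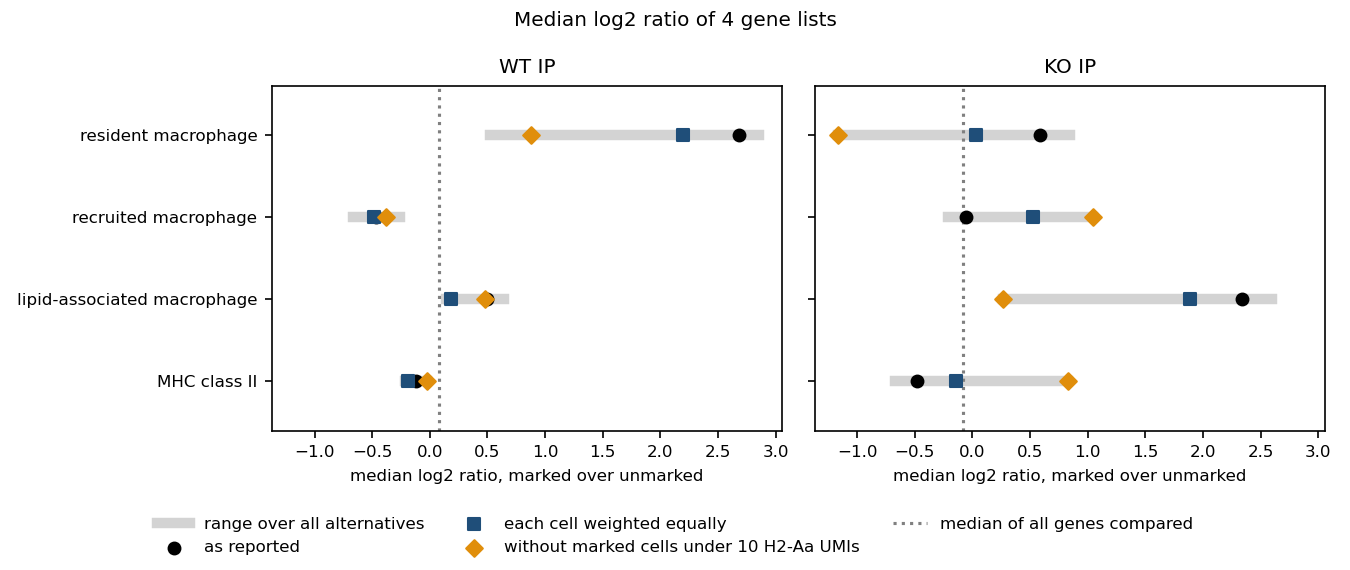
Median log2 ratio of CPM, marked over unmarked, of 4 gene lists in WT IP (left) and KO IP (right): as reported (circles), with each cell weighted equally (squares) and without marked cells under 10 H2-Aa UMIs (diamonds), with grey bars for the range over all alternatives and a dotted line for all genes compared. The resident median runs from 0.53 to 2.86 in WT IP and from -1.17 to 0.85 in KO IP. Genes that passed the minimum count through marked cells alone had to be higher in them.

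A test over both libraries was then fitted with edgeR's quasi-likelihood method on the 4 sums, with the library as a block. Its only replicates were WT IP and KO IP, which differ in genotype, and it had 1 residual degree of freedom. Of 3298 genes tested, 0 passed an adjusted p of 0.05 as higher (0.0%) and 0 as lower (0.0%), 123 had an unadjusted p under 0.05, and DESeq2 on the same sums called 2, both higher. Those were Serpinb6a and Selenop. By edgeR, 0 of the 12 resident genes tested passed, with 11 higher in marked cells. None of the 16 recruited (3 higher), 16 lipid-associated (13 higher) or 10 MHC class II genes (4 higher) passed.

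Serpinb6a, a serine protease inhibitor (chromosome 13, 33917918 to 34002794, minus strand), had the smallest edgeR adjusted p, 0.0514, at a log2 difference of 5.18. It had 103 UMIs in 10 marked WT IP cells against 2 in 2 unmarked cells, with 59.2% of the marked UMIs in 1 cell, and 51 UMIs in 1 marked KO IP cell against 1. It has close paralogs, between which reads can be hard to assign. Selenop, a selenium carrier, stood at 1.93 (edgeR adjusted p = 0.106), with a median of 4 UMIs per marked and 2 per unmarked WT IP cell. In KO IP 91.8% of its marked UMIs lay in 1 cell. Folr2 stood at 5.80 (edgeR adjusted p = 0.139). Of the other defining genes, Mrc1 stood at 0.69, Trem2 at 1.46, H2-Aa at -0.46, Ccr2 at -0.36, Cd9 at 0.65 and Itgax at -0.02, each with an edgeR adjusted p of 0.999. Without the cells whose barcodes KO SC shared, the smallest edgeR adjusted p was 0.9996 and 55 genes had an unadjusted p under 0.05.

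Genes were also ranked by the smaller of their log2 ratios in the libraries, among 336 with at least 50 UMIs in each. Of these, 60.4% had the same sign in WT IP and KO IP. Sizes here chose the genes and are a description. The 10 higher genes were Serpinb6a, Selenop, Timp2, Ms4a7, Pltp, Rgs2, Gdi2, Wfdc17, Ctsb and Grn. Timp2, an inhibitor of matrix metalloproteinases, stood at 1.60 (1.03 to 2.25) in WT IP and 3.29 (2.51 to 4.29) in KO IP. Pltp, which transfers phospholipids, was found in 26 of 27 marked and 12 of 17 unmarked WT IP cells, at 1.45 (1.14 to 1.78), and stood at 0.96 (0.42 to 1.53) in KO IP. Gdi2, a regulator of vesicle traffic, lay at 0.88 and 1.17 with no more than 45.0% of the marked UMIs in any cell. Ctsb, a lysosomal protease, and Grn, the progranulin gene, stood at 0.84 and 0.81 in WT IP and at 2.56 and 2.24 in KO IP. There 1 marked cell held 89.3% of the Ctsb and 78.2% of the Grn UMIs. The remaining ratios were 1.21 and 2.01 for Ms4a7, 0.90 and 1.33 for Rgs2 and 0.87 and 3.84 for Wfdc17, in WT IP and KO IP respectively. Without the shared cells, 9 of these 10 genes were higher in WT IP beyond counting error, with Timp2 at 0.93, Ctsb at 0.66, Pltp at 1.80 and the exception, Wfdc17, at -0.12 (-0.53 to 0.30). The remaining cells had helped to choose these genes, so this count is a description and no separate support. The same holds for the 10 lower genes below.

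The 10 lower genes were Arhgap26, Lrmda, Slc16a10, Zeb2, Zfand3, Tmcc1, Vav3, Ahnak, Ifngr1 and Ifi27l2a. Zeb2, a transcription factor of the macrophage lineage, had 4 to 72 UMIs (median 33) per marked and 4 to 217 (median 32) per unmarked WT IP cell, a ratio of -0.77 (-0.90 to -0.63). In KO IP it ran from 2 through 14 to 33 in marked and from 6 through 42 to 95 in unmarked cells, a ratio of -1.55 (-1.99 to -1.15). Slc16a10, an aromatic amino acid transporter, stood at -0.80 and -2.41, and Ifngr1, a chain of the interferon gamma receptor, at -0.56 and -0.90. The other ratios ran from -0.85 (Arhgap26) to -0.51 (Ifi27l2a) in WT IP and from -1.76 (Zfand3) to -0.57 (Ahnak) in KO IP. In WT IP a single unmarked cell held 25.3% of the Zeb2, 33.3% of the Arhgap26 and 37.7% of the Slc16a10 UMIs of its class. Without the shared cells, 2 of the 10 genes were lower in WT IP beyond counting error, Zeb2 at -0.32 (-0.49 to -0.16) and Ifi27l2a at -0.46 (-0.76 to -0.16). Slc16a10 then stood at -0.00086 (-0.48 to 0.50), Ahnak at -0.09 (-0.30 to 0.12) and Arhgap26 at -0.28 (-0.70 to 0.14). Zfand3 stood at -0.35 (-0.79 to 0.09) and Vav3 at -0.31 (-0.61 to 0.001).

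**Figure D5:**
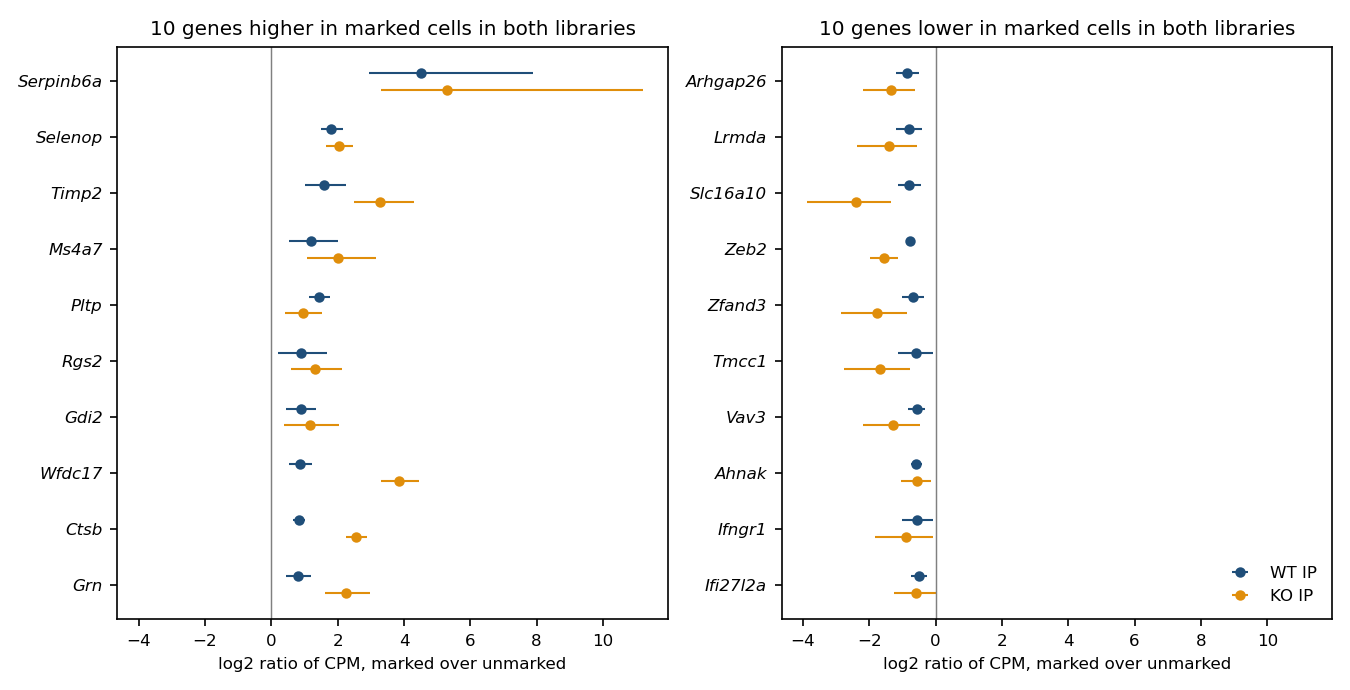
Log2 ratio of CPM, marked over unmarked, with 95% counting intervals, of the 10 genes highest (left) and lowest (right) in marked cells of both libraries, for WT IP (blue) and KO IP (orange). The intervals leave out 0 for each gene shown except Ifi27l2a in KO IP, and they cover counting error only. All cells of each class are included.

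Of the other gene groups, edgeR called none in the proliferation (2 tested), immediate early (13 tested) or mitochondrially encoded (12 tested) lists. Proliferation genes, 8 compared in WT IP, had a median of 0.97, with 5 higher and 1 lower beyond counting error. Per cell the list had a median of 5 UMIs in marked and 4 in unmarked cells, and 1 marked cell held 177 of the 450 marked UMIs. Top2a had 38 UMIs in 3 marked cells, 68.4% of them in 1 cell, against 6 in 4 unmarked cells. Ube2c had 57 UMIs in 5 marked cells, 52.6% in 1 cell, against 0. KO IP held 0 UMIs of either. Immediate early genes, which tissue dissociation is known to induce, had medians of 0.32 in WT IP and 0.25 in KO IP. Mitochondrially encoded genes had medians of 0.59 and -0.06. Whether dissociation or mitochondrial content had a part in the differences above was not tested. Haemoglobin UMIs lay almost entirely in 1 unmarked WT IP cell, with 14167 of its 39642 UMIs.

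Genotype within a class is given as values, with 1 library each. Over the genes compared between KO IP and WT IP, the resident median was 1.23 in marked cells (14 genes) and 1.20 in unmarked cells (6 genes). Over all genes compared the median was -0.10 in marked and 0.03 in unmarked cells. In KO IP 1 cell held 76.0% of the marked and 1 cell 48.8% of the unmarked resident UMIs. The recruited medians were 0.23 and -0.52, and those of MHC class II -0.34 and 0.07. The lipid-associated median was 0.04 in marked cells, and in unmarked cells 5 of 15 genes were higher in KO IP. Cdkn1a, a cell cycle inhibitor, differed within counting error in both classes (0.34, -0.32 to 0.91, and -0.49, -1.17 to 0.10).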

How the data were processed

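Raw UMI counts per gene and barcode were deposited for 4 libraries. Per the file headers the authors counted with Cell Ranger 7.0.0, and the submitters' processing notes name STAR 2.6 and mm10. The use of intronic reads is not given in the sources used here, and the labels mention both cells and nuclei. Each library held 10015201 to 15533961 UMIs. A barcode stayed in if it had 200 genes or more and no more than 25% of its UMIs from mitochondrial genes (4136 of 4927). Scrublet in scanpy 1.11.5 marked 17 of these and no gated cell, and none was removed.

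Members and gene lists were chosen with earlier results of these data known. UMIs were summed per class and library. Ratios carry exact conditional binomial 95% intervals, and shares exact Clopper-Pearson intervals. They cover counting error only, not differences between cells or mice. Cells are not replicates, so no test was made within a library. A count of 0 was taken to allow 3 counts. The median-of-ratios scaling moved all values by 0.09 in WT IP and -0.08 in KO IP on the log2 scale. edgeR 4.0.16 (TMM, filterByExpr, Benjamini-Hochberg adjustment, threshold 0.05) and DESeq2 1.42.0 were run in R 4.3.3. Reporters and gate genes stayed out of the gene comparisons.

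Genes were named if they passed the edgeR test in the resident, recruited, lipid-associated, MHC class II or large peritoneal lists, if they were among 12 defining genes, or if they were among the 10 largest ratios in each direction. That ranking left out reporters, gate genes, and genes that are ribosomal, mitochondrially encoded, sex-linked or code for haemoglobin or immunoglobulin. Other genes were chosen after their values were seen. Coordinates came from GENCODE vM21 of GRCm38, matched by identifier. The scripts were tested on simulated counts.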

Additional observations from a re-analysis of the deposited data

Results flagged for a closer look

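Il1b was picked out because marked cells stood below unmarked cells in WT IP (log2 ratio -2.85) and above them in KO IP (3.02), each beyond its 95% counting interval. The difference between the libraries was not tested, since each genotype had 1 library. In WT IP 72.7% of the unmarked Il1b UMIs came from 1 cell, and among cells with at least 10 C1q UMIs the WT IP ratio was 0.38.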

How the results depend on the processing

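Leaving out a library leaves 1 pair of sums and no residual degree of freedom, so the values of each library stand in its place. The marked and unmarked sums of a library were paired by the library block. With no library block edgeR called 0 genes, and 67 against 123 had an unadjusted p under 0.05. The marked shares stayed within their intervals under 8 alternatives (47.9% to 65.3% in WT IP, 22.2% to 4 of 8 cells in KO IP), as did the Tdtomato ratios under 11.

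The resident median of WT IP moved from 2.68 (13 genes) to 0.53 after thinning each cell to 3000 UMIs (4 genes), 0.88 without marked cells under 10 H2-Aa UMIs (8 genes), 0.83 without the barcodes shared with KO SC (7 genes) and 1.06 at a minimum of 50 UMIs (8 genes). That of KO IP was 0.59 over 8 genes, -0.88 after thinning, with 1 gene left, and -1.17 over 3 genes without the H2-Aa-low cells. Without those cells the recruited median of KO IP was 1.04 and the MHC class II median 0.83. Marked cells were left out by their H2-Aa UMIs and unmarked cells were not, so a higher H2-Aa and MHC class II value was fixed by that choice. The H2-Aa, haemoglobin and shared-barcode alternatives were chosen after the data were seen.

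edgeR called 6 genes higher and 1 lower at no more than 10% mitochondrial UMIs, 12 and 1 at a C1q sum of at least 10, 1 and 0 at GFPcds of at least 5, 3 and 0 after thinning (537 genes tested), 2 and 0 against unmarked cells of matched depth, and 23 and 13 with no filter on low counts (13395 tested). DESeq2 called 2 and 0. The other 8 alternatives called none.

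Without the H2-Aa-low cells, the sign of the edgeR difference turned for Ccr2 (0.28), Itgax (0.061) and H2-Aa (0.19). Within KO IP the ratio turned for H2-Aa (0.51), Cd74 (0.71), S100a4 (0.77), Selenop (-1.18), Ms4a7 (-3.00), Ctsb (-0.39), Ctsd (-0.23) and Apoe (-2.78), and in WT IP for F13a1 (-0.060). Itgax over both libraries also turned at GFPcds of at least 5 (0.00679), with no library block (0.095) and in DESeq2 (0.082). After thinning, Mrc1 (-0.88) and Ms4a7 (-0.16) of KO IP turned, and Trem2 (-1.06), Ms4a7 (-0.13), Wfdc17 (-0.16), Lrmda (0.10) and Tmcc1 (0.19) of WT IP. Without the shared barcodes, Cd9 over both libraries (-0.12) and Wfdc17 (-0.12) and Lrmda (0.15) of WT IP turned. A C1q sum of at least 10 turned Ifngr1 (0.040), Il1b (0.38) and Chil3 (4.30) of WT IP, and matched depth turned Chil3 (0.89). With each cell weighted equally, Mrc1 (-0.15) and S100a4 (0.26) of KO IP and Apoe (-0.27) of WT IP turned. The cause was not tested. Of 1204 such values per library, 1052 stayed within the reported interval.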

Other observations

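Interferon-stimulated genes had a median log2 ratio of 3.56 over 4 genes in KO IP (2.26 with the genes absent from unmarked cells at their bound) and -0.29 over 4 genes in WT IP. In KO IP, Rsad2 (54 UMIs), Ifit1 (37 UMIs) and Ifit2 (11 UMIs) each lay in 1 marked cell, with 0 in the unmarked cells. Rsad2 and Ifit1 passed the minimum count through the marked class alone and had to be higher. The KO IP median therefore says nothing about the list as a group. Without marked cells under 10 H2-Aa UMIs, 1 gene of the list was left in KO IP, at 0.65. Iron and haem handling genes were on balance higher in marked cells, with medians of 0.24 over 8 genes in WT IP and 0.87 over 4 in KO IP. Without marked cells under 10 H2-Aa UMIs the KO IP median was -0.57.

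Cd5l, on the list of large peritoneal macrophages, had 35 UMIs in 1 marked KO IP cell and 0 in the unmarked cells, at least 13.3-fold higher. The Cd5l cell was the one that held the Spp1 UMIs. Gata6 of the same list had 0 in every class.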
